A study of Mus musculus with 6 samples.

Results

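Annexins and S100 proteins are families of calcium-binding proteins that act together at membranes. The genes followed here were listed by symbol and chosen with earlier results of these data known. They are *Anxa1* to *Anxa7*, *S100a6*, *S100a10* and *S100a11*. All 10 were found among the 55487 genes counted. They were read in RNA sequencing of hepatocytes, the parenchymal cells of the liver, from mice aged 6 to 8 weeks. One group of 3 libraries came from mice homozygous for AEG-1-C75S and the other group of 3 from wild-type (WT) mice. Heterozygous parents gave both genotypes, all 6 samples carry the treatment label Control, and RNA was taken 48 h after the cells were isolated. AEG-1 is the protein of the gene *Mtdh*, and C75S exchanges the cysteine that is palmitoylated for a serine. Sex, strain background, the number of mice and any pooling are not given in the sources used here, so n counts libraries and p-values measure the spread between libraries, which may be technical.

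An annexin binds acidic phospholipids through a core of repeated domains when calcium rises, and its N-terminal tail decides what it binds besides. S100 proteins are small EF-hand proteins that form dimers and bind those tails. The best known pair is annexin A2 with the S100a10 product p11, which form a heterotetramer that bridges membranes, links them to actin and carries plasminogen and its activator at the cell surface. In the normal liver several of these genes are more prominent in bile duct and other non-parenchymal cells than in hepatocytes, and they are known to rise when hepatocytes spread and lose differentiation in culture.

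The libraries held 16944723 to 21044292 counts on genes. A count of 3, used as the floor of detection, corresponded to 0.142 to 0.172 CPM, which is counts per 1000000 scaled counts on genes. The labelled cell type was borne out by its markers: 9 of 9 hepatocyte markers were tested, and their summed level ranged from 75546 to 88896 CPM in C75S and from 83675 to 91934 CPM in WT. *Alb* made up most of that sum, at 55643 to 66472 CPM in C75S and 63097 to 70067 CPM in WT. Of the 12 Kupffer cell and macrophage markers *Cd68* was at 94.9 to 138 CPM and *Csf1r* at 0.634 to 1.44 CPM, the others stayed below 1 CPM in every library, and *Clec4f*, *Adgre1*, *Cd5l* and *Timd4* were below 0.2 CPM. Among the 7 neutrophil markers, 6 had no count. In bulk RNA, fewer cells of a type and less RNA per cell cannot be told apart.

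The 10 genes lie on 7 chromosomes of GRCm38, and the GENCODE M21 annotation lists all of them as protein coding. The S100 genes share chromosome 3: *S100a6* spans 90612882 to 90624181, *S100a11* 93520488 to 93526287 and *S100a10* 93555080 to 93564643, so that the last pair is separated by 28.8 kb. *Anxa5* (36448923 to 36475894) is on the same chromosome, 54137 kb before *S100a6*. *Anxa2* lies on chromosome 9 (69453620 to 69491795), *Anxa3* on chromosome 5 (96793339 to 96845966), *Anxa4* on chromosome 6 (86736840 to 86793584), *Anxa6* on chromosome 11 (54979108 to 55033445), *Anxa7* on chromosome 14 (20455260 to 20480133) and *Anxa1* on chromosome 19 (20373428 to 20390944). *Anxa3* shares 112 exonic bases, 3.07% of its exons, with *Gm42603* on the same strand, and reads there could be assigned to neither. *S100a11* has 7 processed pseudogenes whose transcripts are 85.6% to 99.0% identical to 44.4% to 59.3% of its own. Together these copies received 1 to 5 counts per library. Reads that mapped to more than 1 place were not counted, so the level of *S100a11* may be understated by an unknown amount.

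Promoter windows from RefSeq (GRCm38.p6; 250 bases before and 50 after the annotated start) were held for 7 of the 10 genes (all but *Anxa3*, *Anxa6* and *S100a10*), as 9 windows. Shown here are those of *Anxa2* and *S100a6*, which were higher in C75S, and those of *Anxa5* and *S100a11*, the most abundant of the 10 genes per length, which did not pass the test. Each runs 5′ to 3′ along the gene's strand. Capitals mark matches on either strand to the AP-1 motif TGANTCA, the GC box GGGCGG and the TATA box TATAAA. No marked match overlaps another.
Anxa2, chr9:69453433-69453732, plus strand: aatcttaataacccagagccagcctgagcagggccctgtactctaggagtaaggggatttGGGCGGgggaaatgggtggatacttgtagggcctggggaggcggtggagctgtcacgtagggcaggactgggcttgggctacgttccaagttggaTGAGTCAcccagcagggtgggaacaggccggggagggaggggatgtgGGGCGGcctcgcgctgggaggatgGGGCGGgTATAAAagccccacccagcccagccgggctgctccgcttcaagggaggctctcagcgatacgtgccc
S100a6, chr3:90612644-90612943, plus strand: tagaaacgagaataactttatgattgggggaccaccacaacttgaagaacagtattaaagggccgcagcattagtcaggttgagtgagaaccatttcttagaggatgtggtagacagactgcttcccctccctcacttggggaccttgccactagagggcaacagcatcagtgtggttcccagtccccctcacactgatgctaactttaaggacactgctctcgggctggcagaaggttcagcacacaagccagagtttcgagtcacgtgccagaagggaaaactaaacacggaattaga
Anxa5, chr3:36475838-36476137, minus strand: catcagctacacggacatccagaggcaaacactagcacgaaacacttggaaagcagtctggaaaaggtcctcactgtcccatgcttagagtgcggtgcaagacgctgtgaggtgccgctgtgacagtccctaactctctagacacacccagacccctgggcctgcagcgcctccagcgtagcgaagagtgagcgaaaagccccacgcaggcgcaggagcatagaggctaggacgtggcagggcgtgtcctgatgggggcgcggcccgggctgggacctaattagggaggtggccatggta
S100a11, chr3:93520246-93520545, plus strand: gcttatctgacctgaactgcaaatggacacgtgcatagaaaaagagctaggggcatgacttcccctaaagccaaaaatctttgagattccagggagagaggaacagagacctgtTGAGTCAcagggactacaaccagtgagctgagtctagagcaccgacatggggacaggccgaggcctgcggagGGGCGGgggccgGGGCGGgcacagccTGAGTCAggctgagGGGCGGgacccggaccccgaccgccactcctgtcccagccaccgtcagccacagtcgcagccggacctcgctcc

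The *Anxa2* window held 1 AP-1 match, 95 to 89 bases before the start, 3 GC boxes and a TATA box 17 to 12 bases before the start. The *S100a11* window held 2 AP-1 matches, 136 to 130 and 38 to 32 bases before the start, and 3 GC boxes. No AP-1, GC box or TATA box letters were found in the windows of *S100a6* and *Anxa5*. Among all 32851 windows of this length, 7.81% held an AP-1 match, 35.66% a GC box and 13.62% a TATA box. Of the 9 windows held for these genes, those of *Anxa2* and *S100a11* had an AP-1 match and the other 7 did not. The TEAD core GGAATG, found in 14.66% of all windows, matched in the *Anxa1* window alone among the 9. These matches describe letters and not binding.

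Levels between genes were compared as RPKM, that is CPM per kb of merged exons. Of the 10 genes, 9 were abundant transcripts, from the 92.2nd percentile of tested genes (*Anxa7*) to the 99.7th (*Anxa5*). *Anxa5*, whose product covers exposed phosphatidylserine, came first at 763 to 801 RPKM over the 6 libraries. *S100a11*, a partner of annexin A1, followed at 548 to 686 RPKM and *S100a10* at 466 to 529 RPKM. *Anxa2* came next at 169 to 213 RPKM. None of these 4 overlapped its neighbour in the order.

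*Anxa3* (74.1 to 107 RPKM), *Anxa6* (67.1 to 77.1 RPKM) and *S100a6* (50.8 to 84.9 RPKM) followed, and each overlapped the next, as *S100a6* did *Anxa4*. *Anxa4*, an annexin of epithelial membranes, lay at 46.1 to 52.9 RPKM and *Anxa7*, which binds sorcin, at 39.6 to 42.2 RPKM. The order depends on the length used. With the longest transcript, an alternative added after the data had been seen, *S100a10* (mean 880 RPKM) stood above *Anxa5* (803 RPKM), and *S100a6* (112 RPKM) above *Anxa4* and *Anxa6* (86.6 and 85.1 RPKM). *Anxa1*, a glucocorticoid-induced annexin of leukocytes and barrier epithelia, was last under both lengths, at 0.055 to 0.196 RPKM with merged exons. Its raw counts were 6, 6 and 3 in C75S and 12, 8 and 5 in WT. It did not pass the low-count filter and was not tested.

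**Figure D1:**
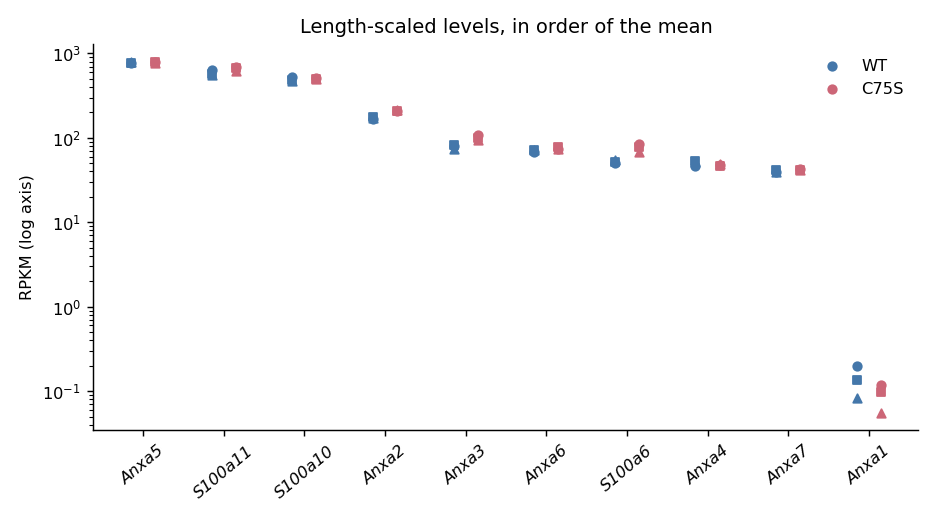
RPKM of each gene in every library on a log axis, in order of the mean over 6 libraries; colours give the genotype and symbols the replicate (circle 1, square 2, triangle 3). *Anxa5* is highest at 763 to 801 RPKM and *Anxa1* lowest at 0.055 to 0.196 RPKM, with the other genes at 39.6 RPKM or more.

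Within the annexins, *Anxa5* alone made up 62.4% ± 0.40 of the summed RPKM in C75S, compared with 65.3% ± 0.94 for WT (SD over 3 libraries each). Like the order, this share depends on the gene length used, here merged exons. *Anxa5* itself averaged 1401 CPM in C75S and 1379 CPM in WT. The 10 genes together took 0.431% ± 0.017 of all gene counts in C75S, compared with 0.394% ± 0.006 for WT. Their summed level was 4354, 4310 and 4214 CPM in the C75S libraries and 3977, 3963 and 3937 CPM in the WT libraries. Every C75S sum was above every WT sum. The annexin part separated in the same way, at 3201 to 3270 CPM in C75S and 2944 to 3021 CPM in WT. The S100 part overlapped, at 1013 to 1084 CPM in C75S and 920 to 1033 CPM in WT. *Anxa2*, *Anxa3* and *S100a6*, which differed by the test below, are part of the sum.

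The comparison of genotypes asked which of these genes differed when the AEG-1 cysteine was replaced. *S100a6*, *Anxa3* and *Anxa2* were higher in C75S, by 45.8%, 27.6% and 21.5% in the fitted values. No member was lower by the test. These are 3 of the 9 genes that could be tested, with an adjusted p-value under 0.05 in edgeR's quasi-likelihood test over 12741 genes. Of all genes tested 3.11% were called, 1.74% as higher in C75S. Abundant genes are called more often: of the 2266 genes at or above the mean CPM of *S100a6*, the lowest of the 9, 6.53% were called. Unadjusted p-values under 0.05 were reached by 5 of the 9 and by 13.4% of all genes. The median log2 fold change of the 9 was 0.11, against -0.003 over all genes, and 8 of the 9 estimates were above 0. The genes were chosen with earlier results of these data known, so these counts describe the list and do not test it.

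**Figure D2:**
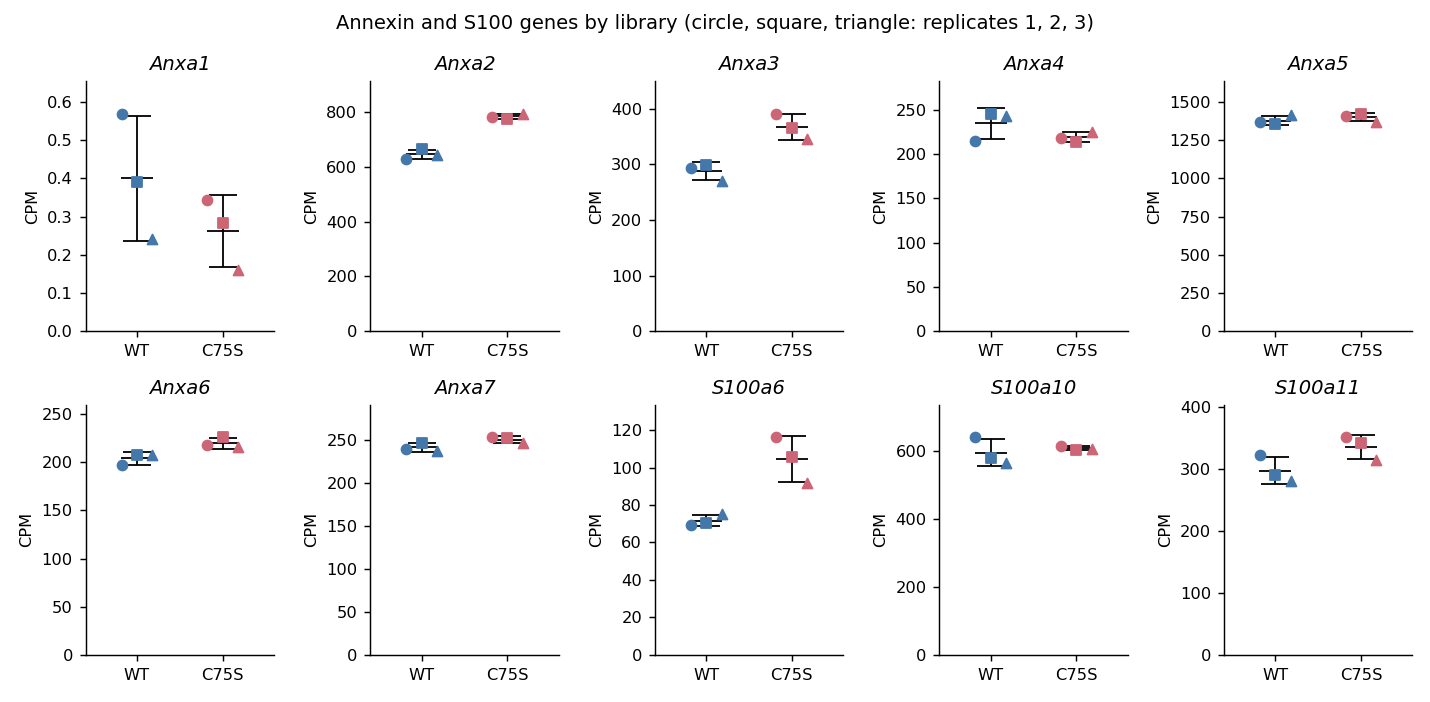
CPM of the 10 genes in every library, with each genotype's mean (long bar) and SD (whiskers) over 3 libraries; each axis starts at 0. The C75S points of *Anxa2*, *Anxa3*, *Anxa6* and *S100a6* all lie above the WT points, while those of the other genes overlap.

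*S100a6* encodes calcyclin, an S100 protein of proliferating and spreading cells that binds annexins A2, A6 and A11. It was measured at 116, 106 and 91.7 CPM in the C75S libraries and at 69.5, 70.3 and 75.1 CPM in WT. All C75S libraries were above all WT libraries, and the C75S libraries were spread more widely, with an SD of 12.2 against 3.03 CPM. Its log2 fold change was 0.54 (SE 0.07, 95% interval 0.40 to 0.69, edgeR adjusted p = 5.85e-05). Without C75S replicate 1, the highest library, it was 0.46 and without C75S replicate 3 it was 0.63.

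*Anxa3* encodes a short-tailed annexin found in bile duct epithelium and in cultured hepatocytes. The C75S libraries stood at 391, 365 and 346 CPM and the WT libraries at 294, 299 and 270 CPM. The groups did not overlap. The log2 fold change was 0.35 (SE 0.05, 95% interval 0.24 to 0.46, edgeR adjusted p = 0.000228).

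*Anxa2*, the membrane and actin linker that pairs with p11, was measured at 783, 777 and 795 CPM in C75S and at 630, 664 and 644 CPM in WT. The lowest C75S library was above the highest WT library, and the SD was 9.29 CPM among the C75S and 17.3 CPM among the WT libraries. The log2 fold change was 0.28 (SE 0.05, 95% interval 0.18 to 0.39, edgeR adjusted p = 0.00136). *Anxa2* took 16.6% ± 0.43 of the summed annexin RPKM in C75S, compared with 14.6% ± 0.36 for WT (SD over 3 libraries each). This share too depends on the gene length used.

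Complete separation with C75S on top was seen in 4 of the 9 genes, these 3 and *Anxa6*, and in 9.02% of all tested genes. *Anxa6*, a large annexin with a duplicated core that takes part in cholesterol and endosome traffic, was at 218, 226 and 216 CPM in C75S and at 197, 208 and 208 CPM in WT. Its log2 fold change of 0.11 (SE 0.05) did not pass the test (edgeR adjusted p = 0.325).

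Markers of other liver cell types were read beside these genes. The summed level of the 8 cholangiocyte (bile duct) markers was 237, 210 and 181 CPM in the C75S libraries and 161, 169 and 166 CPM in WT, and so did not overlap either. *Spp1* made up most of that sum, at 157, 133 and 105 CPM in C75S and 83.9, 96.5 and 92.5 CPM in WT (edgeR adjusted p = 0.235). *Krt19* was the called member of the list (edgeR adjusted p = 0.00151), *Sox9* had a log2 fold change of -0.06, *Epcam* stayed under 0.6 CPM in all libraries, and *Cftr* was at 0. C75S replicate 1 was highest and C75S replicate 3 lowest among the C75S libraries in this sum, and likewise in *S100a6* and *Anxa3*, but not in *Anxa2*. Without C75S replicate 1 the log2 fold changes were 0.30 for *Anxa3* and 0.28 for *Anxa2*, both still called (edgeR adjusted p = 0.00154 and 0.00252). The part of bile duct RNA in these differences was not tested.

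The sums of the other lists did not separate the genotypes. The summed Kupffer cell and macrophage markers (97.2 to 141 CPM in C75S, 105 to 135 CPM in WT, nearly all *Cd68*), endothelial markers (33.3 to 43.2 against 31.3 to 42.0 CPM) and stellate and fibroblast markers (54.4 to 70.7 against 69.3 to 92.3 CPM) overlapped between genotypes. *Reln* made up most of the stellate and fibroblast sum, at 49.9 to 67.2 CPM in C75S and 65.8 to 88.1 CPM in WT. By edgeR 0 of the 12 tested members of the Kupffer, endothelial and stellate lists were called, where 3.11% of all genes tested were. Of the 6 tested endothelial genes, 5 had an estimate above 0, and 2 (*Lyve1* and *Pecam1*) had an unadjusted p-value under 0.05, which 13.4% of all genes reached. *Stab2*, the most abundant of them at 20.5 to 32.8 CPM, had a log2 fold change of -0.09. Leukocyte and mesothelial markers stayed under 0.5 CPM in sum. Of the 9 hepatocyte markers 1 was called, against 3.11% of all genes tested. It was *Fgb*, higher in C75S (log2 fold change 0.32, edgeR adjusted p = 0.00112).

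*S100a11*, an S100 protein that binds the tails of annexins A1 and A2, was at 351, 341 and 314 CPM in C75S and at 322, 290 and 280 CPM in WT. The groups overlapped, with WT replicate 1 above C75S replicate 3. Its log2 fold change was 0.17 (SE 0.06, unadjusted p = 0.00512, edgeR adjusted p = 0.11), and this was the member whose call moved with the libraries used. It passed without WT replicate 1 (log2 fold change 0.24, edgeR adjusted p = 0.0242) and without C75S replicate 3 (0.22, edgeR adjusted p = 0.0494). It also passed with no filter on low counts (edgeR adjusted p = 0.0407).

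*S100a10*, which encodes p11, the subunit that joins annexin A2 molecules, was at 617, 604 and 608 CPM in C75S and at 642, 582 and 565 CPM in WT. The WT libraries spanned the C75S libraries, and WT replicate 1 held the highest value of the 6. The log2 fold change was 0.03 (SE 0.05, 95% interval -0.08 to 0.14, edgeR adjusted p = 0.863).

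*Anxa5* was at 1406, 1424 and 1373 CPM in C75S and at 1368, 1357 and 1414 CPM in WT. The groups overlapped, with WT replicate 3 above C75S replicates 1 and 3, and gave a log2 fold change of 0.02 (95% interval -0.09 to 0.13, edgeR adjusted p = 0.909). *Anxa7* (253, 252 and 246 CPM in C75S, 239, 247 and 237 CPM in WT) had a log2 fold change of 0.05 (95% interval -0.04 to 0.15). *Anxa4* was the single tested gene with an estimate below 0. It was at 219, 214 and 225 CPM in C75S and at 215, 246 and 243 CPM in WT, where replicate 1 stood apart from the other WT libraries. Its log2 fold change was -0.10 (95% interval -0.21 to 0.01, edgeR adjusted p = 0.46). It was -0.16 without WT replicate 1 (edgeR adjusted p = 0.112) and -0.06 without WT replicate 2.

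**Figure D3:**
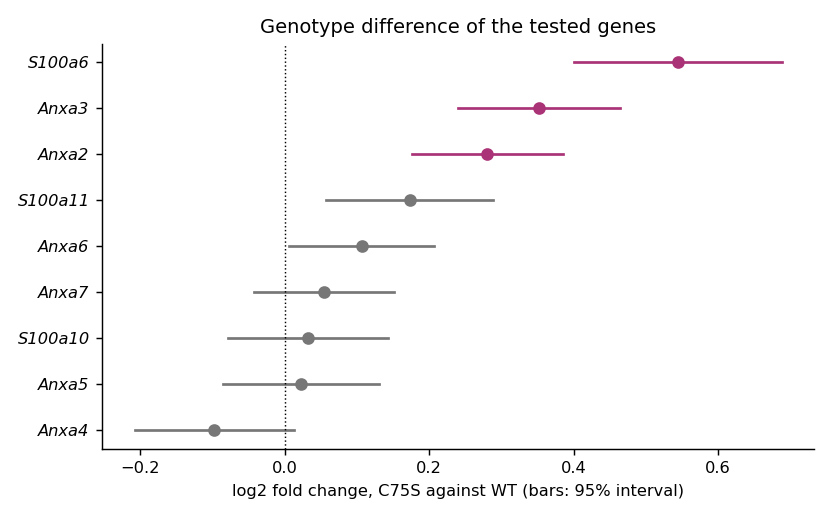
Log2 fold change of C75S against WT with its 95% interval for the 9 tested genes, coloured where the adjusted p-value was under 0.05. *S100a6* (0.54), *Anxa3* (0.35) and *Anxa2* (0.28) passed, and *Anxa4* (-0.10) is the one estimate below 0.

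The partners *Anxa2* and *S100a10* were set against each other within each library, which removes the scaling between libraries. The ratio of *S100a10* to *Anxa2* RPKM was 2.42, 2.40 and 2.35 in the C75S libraries and 3.14, 2.696 and 2.699 in the WT libraries. Every C75S ratio was below every WT ratio. The ratio is made of the *S100a10* and *Anxa2* levels given above, so it is no separate evidence. The mean log2 ratio was 1.26 ± 0.02 for the C75S libraries and 1.504 ± 0.13 for the WT libraries (SD, n = 3 each), a difference of -0.25. A two-sided exact permutation test gave p = 0.1, the smallest that 3 against 3 allows, so this design could not pass 0.05. WT replicate 1 widened the difference, which was -0.17 without it. The height of the ratio depends on the gene lengths used, while the difference does not: with the longest transcripts the ratios were 2.59 in C75S and 3.07 in WT (geometric means), and the difference was again -0.25.

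**Figure D4:**
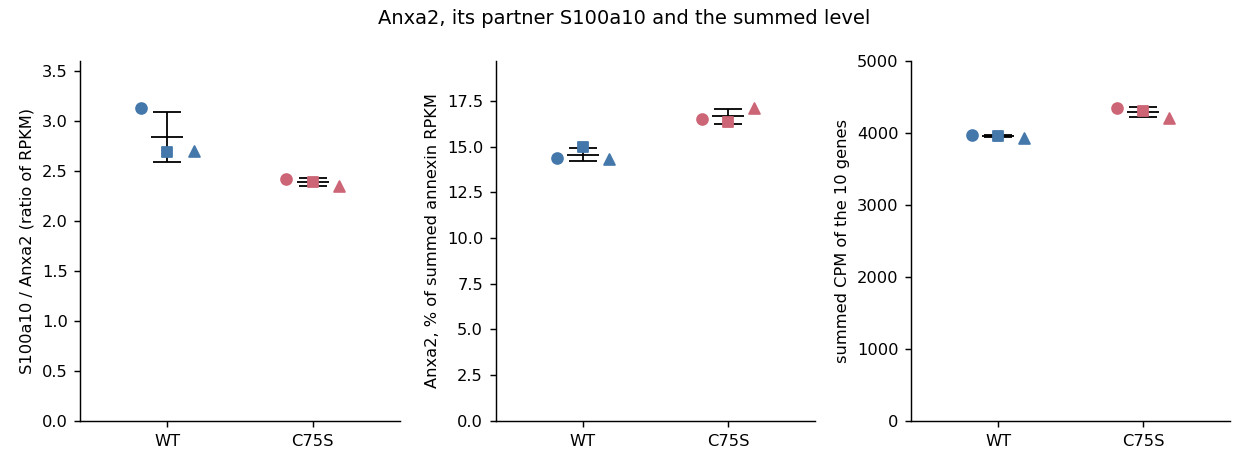
Ratio of *S100a10* to *Anxa2* RPKM, share of *Anxa2* in the summed annexin RPKM and summed CPM of the 10 genes, each by library (circle, square and triangle for replicates 1, 2 and 3) with mean and SD over 3 libraries. The C75S ratios (2.35 to 2.42) lie below the WT ratios (2.696 to 3.14), and the C75S sums (4214 to 4354 CPM) above the WT sums (3937 to 3977 CPM).

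Among the other 5 annexins, *Anxa11* averaged 19.5 ± 1.03 CPM for C75S and 21.01 ± 2.24 CPM for WT and *Anxa9* 4.16 ± 0.18 and 4.29 ± 1.09 CPM (SD, n = 3 each). Neither was called (edgeR adjusted p = 0.676 and 0.963). *Anxa13* was below the floor on average, and *Anxa8* and *Anxa10* had no count.

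Of the 14 other S100 genes, 4 were tested and 1 was called, where 3.11% of all genes tested were. *S100g*, which encodes the calcium buffer calbindin-D9k, was lower in C75S, at 3.04, 2.99 and 3.32 CPM against 4.99, 7.46 and 6.55 CPM in WT. The groups did not overlap, though the share of all tested genes lying wholly below WT was not counted. The log2 fold change was -1.02 (SE 0.19, edgeR adjusted p = 0.00157). The direction is opposite to that of *S100a6*. *S100a1*, an S100 protein best known from muscle, was the most abundant of this list with 200.3 ± 8.03 CPM for C75S and 192 ± 3.997 CPM for WT (edgeR adjusted p = 0.642). *S100a16* (25.8 and 22.6 CPM) and *S100a13* (23.6 and 20.95 CPM) had log2 fold changes of 0.19 and 0.17 and were not called (edgeR adjusted p = 0.393 and 0.414). The neutrophil genes *S100a8* and *S100a9* had no count in any library.

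Genes of calcium-dependent membrane binding and repair were mostly not called. Of 19 listed genes, 16 were tested and 1 was called, where 3.11% of all genes tested were. An estimate above 0 was found for 13 of the 16 and for 6259 of all 12741 genes. Unadjusted edgeR p-values under 0.05 were reached by 6 of the 16 and by 13.4% of all genes. The median log2 fold change of the 16 was 0.09, against -0.003 over all genes. The called gene was *Cpne8*, a copine, which belongs to another family of calcium-dependent phospholipid binders. It was higher in C75S, at 26.5, 22.96 and 20.5 CPM against WT values of 14.2, 15.6 and 17.4 CPM (log2 fold change 0.56, SE 0.10, edgeR adjusted p = 0.00157). C75S replicate 1 was again the highest library. The most abundant others were *Capns1* (450 and 429 CPM in C75S and WT), *Ahnak*, the giant scaffold that the annexin A2 and p11 complex recruits to membranes (421 and 388 CPM), and *Capn2* (295 and 264 CPM). In all 3 every C75S library was above every WT library, as in 9.02% of all tested genes. Their log2 fold changes of 0.07, 0.12 and 0.16 did not pass the test (edgeR adjusted p = 0.594, 0.236 and 0.0734).

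In the list of plasminogen activation and annexin receptors, 7 of 11 genes were tested, 2 were higher and 1 was lower. Of all genes tested 3.11% were called, 1.74% as higher in C75S. *Plaur*, the receptor of urokinase, was higher in C75S, at 59.8, 57.9 and 58.6 CPM against WT values of 41.3, 41.3 and 36.8 CPM (log2 fold change 0.56, SE 0.06, edgeR adjusted p = 4.46e-06). *Plg*, plasminogen itself and a major hepatocyte product, was at 156, 174 and 176 CPM against WT values of 117, 123 and 135 CPM (log2 fold change 0.44, edgeR adjusted p = 3.56e-05). *Dlc1*, a tumour suppressor gene whose product binds p11, was lower, at 135, 135 and 145 CPM against WT values of 160.5, 171 and 172 CPM (log2 fold change -0.28, edgeR adjusted p = 0.00151). None of these 3 genes overlapped between genotypes. *Plaur* and *Plg* had every C75S library above every WT library, as did 9.02% of all tested genes. *Dlc1* lay wholly below WT, and the share of all tested genes that did so was not counted. *Hltf*, at 29.5 and 32.3 CPM, and *Plgrkt*, at 6.65 and 6.70 CPM, were not called (edgeR adjusted p = 0.513 and 0.983). The annexin A1 receptor genes *Fpr1* and *Fpr2* were below the floor.

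To find genes that followed *Anxa2* most closely, log2 CPM profiles over the 6 libraries were centred on their own means and compared by root-mean-square distance, among 9635 other genes with a mean of at least 5 CPM. The nearest was *Wdr1*, which promotes the disassembly of actin filaments, at a distance of 0.021 (313 CPM for C75S and 263 CPM for WT, on average). *Snx9*, a sorting nexin of endocytosis, was next at 0.024, followed by *Dap* at 0.026. *Snx9* was called with all libraries (edgeR adjusted p = 0.0299) but lost the call whichever of the 6 libraries was left out. Its edgeR adjusted p-values were then up to 0.119, with log2 fold changes of 0.23 to 0.27 against 0.25. *Wdr1* and *Dap* were called with all libraries and in all 15 alternatives. As the 3 genes were picked for a profile like that of *Anxa2*, their calls are no separate evidence. Among the other members *Anxa3* was closest, at place 247 with a distance of 0.082. *S100a10* came at place 3079 (0.143) and *S100a6*, whose difference was larger, at place 5308 (0.172). These distances describe 6 libraries in 2 genotypes and carry no test.

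**Figure D5:**
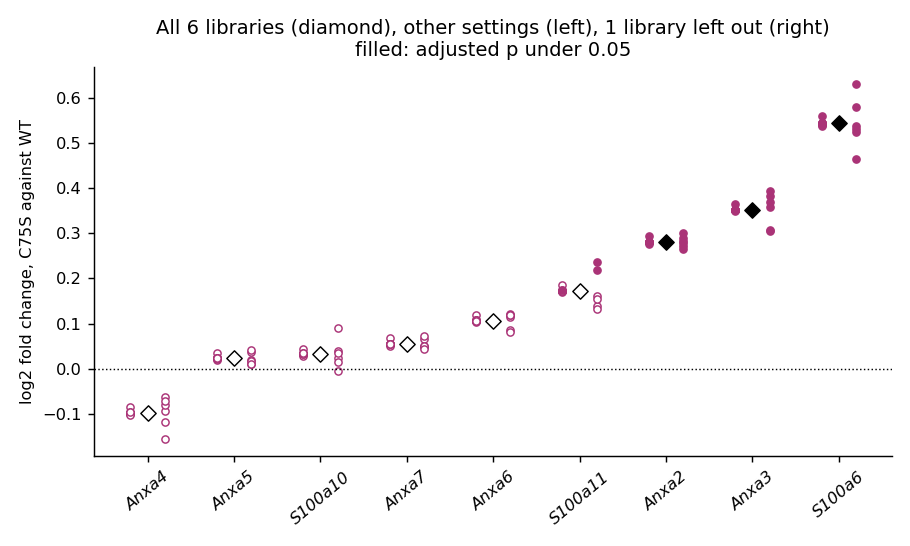
Log2 fold change of each tested gene with all 6 libraries (diamond), under 9 other settings that keep all libraries (left) and with 1 library left out (right); filled symbols have an adjusted p-value under 0.05. *S100a6*, *Anxa3* and *Anxa2* are filled throughout, and *S100a11* is filled under 4 of 15 alternatives.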

How the data were processed

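The members and the gene lists were chosen with earlier results of these data known. Each deposited file holds raw read counts per Ensembl gene for 1 library, in the layout of STAR gene counts. Per the submitters' processing notes, Trim Galore 0.6.6, STAR 2.7.9a and edgeR 3.36.0 were used with mm10 (GRCm38). The annotation release and settings are not given in the sources used here. The library kit was Illumina's TruSeq RNA kit, per the labels' protocols. Groups and replicate numbers come from the sample titles. The reverse-strand counts were used, which held 32.9 to 33.9 times the forward-strand counts, and 4 summary rows were left out; multimapping reads were 17.98% to 18.54% of all reads. Of 55487 rows, 55227 matched GENCODE M21. Of the listed names, Tf and S100a7l2 were matched through their synonyms Trf and 9130204L05Rik.

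Genes were filtered with filterByExpr (minimum count 10, minimum total 15), scaled with TMM and tested with edgeR 4.0.16 in R 4.3.3 (robust quasi-likelihood F-test, two-sided, genotype as the only term) with Benjamini-Hochberg adjustment over all 12741 genes at 0.05. The standard error is the log2 fold change divided by the square root of F. CPM uses TMM-scaled library sizes. Copies were sought with BLAST 2.17.0 (at least 85% identity over 40% of a transcript). The procedure was tested on simulated data, in which the planted changes were larger than those of *Anxa2*, *Anxa3* and *S100a6*. That test does not show how well changes of their size are found. Alternatives were DESeq2 1.42.0, voom in limma 3.58.1, scaling by RLE, by upper quartile or by library size, 2 other filters, unstranded counts, a replicate block and leaving out each library. The genes named were the 10 members; the other annexins and S100 genes with a mean of at least 1 CPM; in the 2 further lists each called gene and the 3 most abundant others; and the 3 genes nearest to *Anxa2*. Items withheld from this text, 1 of them under this rule, are not reported here. Further genes are named as markers or at low level to account for their lists.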

Additional observations from a re-analysis of the deposited data

How the results depend on the processing

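*Anxa2*, *Anxa3* and *S100a6* kept their direction and passed in all 15 alternatives, with log2 fold changes of 0.26 to 0.30, 0.30 to 0.39 and 0.46 to 0.63 and highest adjusted p-values of 0.011, 0.0035 and 0.00288. The number of members called was 3, or 4 where *S100a11* joined them, and the median log2 fold change of the 9 tested ranged from 0.086 to 0.12 (0.077 over 10 members with no filter, where *Anxa1* was fitted too). *Anxa4*, *Anxa5*, *Anxa6* and *Anxa7* were not called in any of the 15. Leaving out a library moved the count of all called genes from 396 to between 201 (without WT replicate 2) and 355; it was 246 without WT replicate 3 and 253 without C75S replicate 1. The fit with no filter called 573. Estimates near 0 changed sign: *S100a10* was at -0.0046 without WT replicate 3 (0.090 without WT replicate 1), *Anxa9* at 0.088 without WT replicate 2 and 0.049 without WT replicate 3 (-0.24 without WT replicate 1), and *Plgrkt* at 0.00086 with library-size scaling, 0.058 without C75S replicate 3 and 0.085 without WT replicate 1 (-0.097 without WT replicate 3). *Capn2* passed under DESeq2 (adjusted p = 0.0468). The cause was not tested.

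Whether the replicate numbers mark pairs is not given in the sources used here. Deviations from the genotype means correlated at -0.04 to 0.025 between libraries of the same number and at -0.044 to 0.024 between the others. Of the 3 C75S libraries, 1 correlated best with its own number. With 3 libraries per genotype these correlations cannot decide whether libraries of the same number share an origin. With the replicate block 480 genes were called against 396, and 4 members against 3, with *S100a11* at an adjusted p of 0.0412.

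In the main fit the log2 fold change of 0.17 (*S100a11*) did not pass. With all 6 libraries kept, it passed with no filter on low counts (edgeR adjusted p = 0.0407). The replicate block also let it pass (edgeR adjusted p = 0.0412). *Anxa1*, at 3 to 12 counts, was fitted only with no filter on low counts and was not called there.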

Other observations

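Reads on the strand opposite to the 10 genes were used in no comparison except the alternative with unstranded counts. They made up at most 0.051% of the reads of both strands at any of the 10 (*Anxa6*), while forward-strand counts were 2.91% of the counts of both strands over all genes. No library had more than 5 such counts at any of them.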
